A study of Mus musculus with 4 samples.

Results

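The 38 genes described here encode the proteins that license, open and copy replication origins: the origin recognition complex, the helicase loaders, the MCM helicase and its activators, the replicative polymerases with primase, the sliding clamp with its loader, and the enzymes that join Okazaki fragments. They were chosen by gene symbol from the 28649 gene rows of the deposited table, and all 38 had a row and passed the filter on low counts. RNA was captured from mouse fibro-adipogenic progenitors (FAPs), a stromal cell population of muscle, sorted as Sca1+ cells from wild-type C57Bl/6 animals. Cells at about 80% confluency were transfected for 24 hours with a biotin-tagged mimic, either of miR-206 or a negative control, and the pulldown followed after a further 48 hours in basal medium containing 10% horse serum. Each mimic was captured in 2 libraries. Both groups carried a transfected biotinylated mimic, and input RNA from the same cells was not analysed here, so a pulldown level could not be set against the level of the transcript in the cell. Nothing in the labels says that the replicates came from separate animals or cultures, so the p-values cover only how far these 4 samples differ, and that spread may be technical.

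Replication origins are bound in G1 by the origin recognition complex, which with Cdc6 and Cdt1 loads the MCM helicase in an inactive form. In S phase Cdc45 and the GINS complex switch the helicase on, polymerase alpha with primase lays down primers, and polymerases delta and epsilon extend them while held by the PCNA clamp. In muscle, miR-206 is known for restraining myoblast proliferation, and Pola1, the catalytic subunit of polymerase alpha, is a published miR-206 target. A microRNA pairs with its targets mainly through its seed, bases 2 to 8 from the 5′ end, so the mature miR-206 strand is shown with the seed in capitals (RefSeq, GRCm38.p6, chr1:20679055-20679076, plus strand).

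mmu-miR-206-3p: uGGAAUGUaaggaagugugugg

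The DNA letters that pair with this seed are ACATTCC. Transcript sequences were not used here, so seed matches in the 38 transcripts were not searched.

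The libraries held 8883200 to 15426700 estimated counts. The 38 genes together had 7489 and 12559 counts in control replicates 1 and 2, and 4269 and 5465 in miR-206 replicates 1 and 2. Their share of all counts was 0.0843% and 0.0881% in the control pulldown and 0.0293% and 0.0354% in the miR-206 pulldown. One transcript, Bgn, took 13.9% and 11.8% of the miR-206 counts against 0.960% and 1.12% of the control counts. The TMM scaling factors were 1.62 and 1.34 in the control libraries and 0.624 and 0.737 with miR-206. Every share or fold below therefore rests on how the libraries were scaled, and the part of Bgn in this was not tested. Markers of FAPs summed to 2894 and 3836 TPM (the deposited abundance, scaled to transcript length and library) in the control libraries and 4287 and 4540 with miR-206. Endothelial markers summed to 108 and 68.5 against 44.2 and 36.6, myogenic markers to 39.8 and 44.0 against 41.9 and 29.1, pericyte and smooth muscle markers to 72.8 and 75.1 against 131 and 86.0, and immune markers to 19.95 and 9.19 against 4.74 and 6.27. Members of the same list differed in direction. Rgs5 was at 3.56 and 4.85 TPM against 71.2 and 37.7 and Acta2 at 65.6 and 65.6 against 23.7 and 17.1 (pericyte and smooth muscle). Egfl7 was depleted while Cdh5 and Erg were enriched (endothelial), and Vcam1 was depleted while Myod1 and Myog were enriched (myogenic). Osr1 was at 82.2 and 103 TPM against 1345 and 1298 while Col1a1 was at 347 and 410 against 105 and 137 (FAP). Of the defining markers, Pax7 and Adgre1 were listed at 0 in 1 control library, and Cd3e and Adgre1 were at or under 3 counts in both miR-206 libraries. The part of these other cells in the results below was not tested.

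The comparison asked which replication transcripts were more or less abundant in the miR-206 pulldown than in the control pulldown. Mcm2, Prim1, Pold1 and Rfc4 were lower, Prim2 was higher, and the other 33 genes did not pass the test (edgeR quasi-likelihood test with TMM scaling, Benjamini-Hochberg adjusted p under 0.05 over all 15240 genes tested). A gene past that threshold is called depleted or enriched below. The 4 depleted genes are 10.5% of the list, where 6.19% of all tested genes were depleted. The 1 enriched gene is 2.63% of the list, where 15.3% of all tested genes were enriched. Fitted log2 folds (miR-206 over control) ran from -2.64 to 1.08 with a median of -0.59, against a median of -0.11 over all tested genes, and 29 of the 38 lay below 0, as did 54.4% of all tested genes. In pulldown RNA from whole cultures, less capture by the miR-206 mimic and more capture by the control mimic cannot be told apart. Nor can either be told from fewer cells of a type or less RNA per cell.

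**Figure D1:**
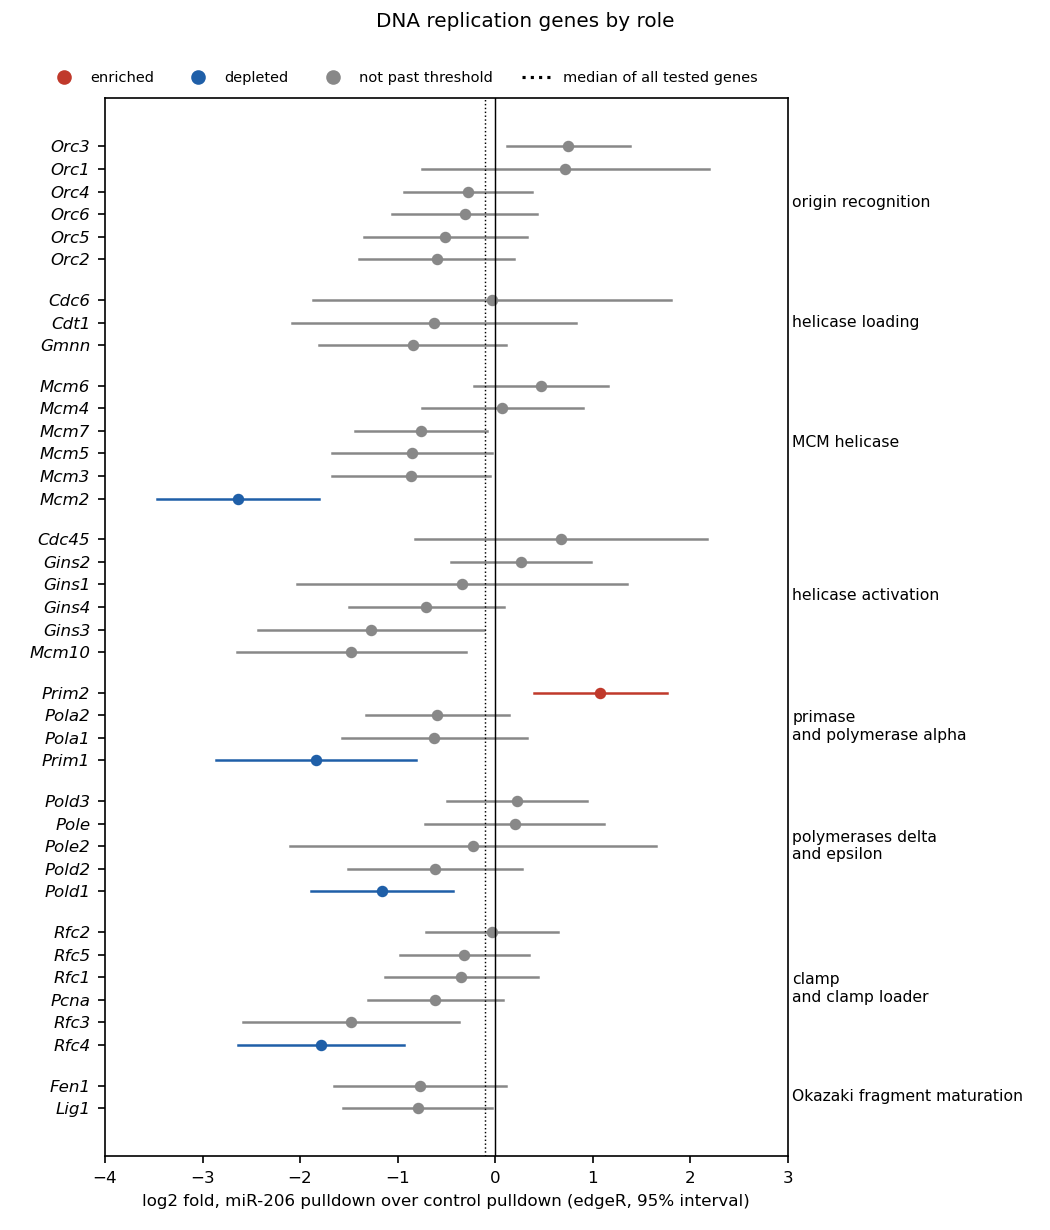
Fitted log2 fold of each of the 38 genes, grouped by role, with its 95% interval on the x axis. Only Prim2 lies past the threshold on the right, and Mcm2, Prim1, Pold1 and Rfc4 do so on the left; the dotted line is the median of all tested genes, -0.11.

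On normalised CPM (counts scaled to the TMM-corrected library size), both control libraries lay above both miR-206 libraries for 20 of the 38 genes, against 32.3% of all tested genes. Both miR-206 libraries lay above both controls for 5 genes, Orc1, Orc3, Mcm6, Prim2 and Pold3, against 29.7% of all tested genes, and the groups overlapped for 13. The number past the threshold differed with the scaling. With upper-quartile scaling 10 genes were depleted and 0 enriched, with total counts alone 26 and 0, and with limma on log2 of the deposited TPM + 0.5 they were 24 and 1, the enriched one then being Orc1 in place of Prim2. Over all genes these settings moved the median log2 fold from -0.11 to -0.40, -1.22 and -0.91, and the share of calls that were enriched from 71.1% to 48.8%, 13.4% and 16.2%. Measured against the all-gene median of the same setting, the median of the 38 genes lay lower in each of the 15 settings run, by 0.49 with TMM and by 0.21 (miR-206 replicate 2 left out) to 0.52 (control replicate 1 left out) over all of them. Leaving out control replicate 1 raised the depleted genes to 12 and the enriched to 2, and leaving out control replicate 2, miR-206 replicate 1 or miR-206 replicate 2 gave 3, 2 and 3 depleted and 2, 0 and 0 enriched.

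**Figure D2:**
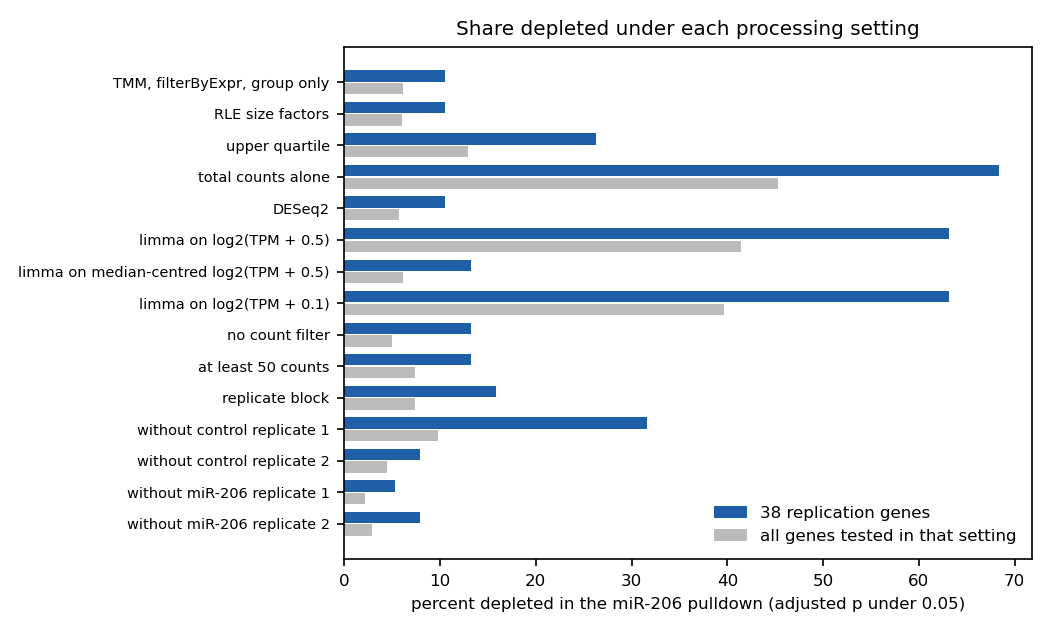
Percent of the 38 genes (blue) and of all genes tested (grey) that were depleted under each of the 15 settings. The share of the 38 rises from 10.5% with TMM to 68.4% with total counts alone, while the share of all genes rises from 6.19% to 45.3%.

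Of the MCM helicase genes, Mcm2, Mcm3, Mcm4, Mcm5, Mcm6 and Mcm7, which encode the ring that unwinds DNA at the fork, Mcm2 was depleted and the other 5 did not pass. Mcm2 (chromosome 6, 88883474 to 88898780, GRCm38) had 19.5 and 34.7 normalised CPM in control replicates 1 and 2, against 4.40 and 4.31 in miR-206 replicates 1 and 2. The controls differed from each other, and both still lay far above the miR-206 libraries. The log2 fold was -2.64 ± 0.40 (SE), a 6.21-fold lower level, and its 95% interval ran from -3.47 to -1.80 (edgeR adjusted p = 7.07e-05). It was depleted in all 15 settings, at log2 folds from -3.72 (total counts alone) to -2.12. Counts behind it were 280 and 661 in the control libraries and 40 and 49 with miR-206.

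The other MCM subunits did not share that size of difference. Mcm3 (chromosome 1, 20802966 to 20820312), the most abundant subunit per length with a mean of 13.5 TPM over the 4 libraries, had 12.1 and 18.1 normalised CPM in the controls and 7.93 and 8.71 with miR-206. Its groups did not overlap, but its log2 fold of -0.86 ± 0.39 missed the threshold (edgeR adjusted p = 0.129). Mcm3 was depleted in 5 of 15 settings. Among them were the upper quartile and total counts alone (edgeR adjusted p = 0.0432 and 0.00179) and limma on TPM at both pseudocounts (adjusted p = 0.0106 and 0.0116). In those settings, in that order, 12.9%, 45.3%, 41.4% and 39.7% of all genes were depleted. With log2 TPM centred on each library's median (median-centred TPM), Mcm3 did not pass (log2 fold -0.65, limma adjusted p = 0.18). Mcm5 and Mcm7 had similar log2 folds of -0.85 ± 0.39 and -0.76 ± 0.32 (edgeR adjusted p = 0.138 and 0.106), again with control above miR-206 in every library. Mcm4 had 12.5 and 31.2 CPM in the controls and 22.1 and 24.0 with miR-206, so the miR-206 values lay between the controls (log2 fold 0.07 ± 0.39). Mcm6 had 16.3 and 27.2 CPM against 31.6 and 28.8, a log2 fold of 0.47 ± 0.32 whose sign turned with total counts and with TPM (lowest -0.62). The 95% intervals of Mcm4 (-0.75 to 0.90) and Mcm6 (-0.21 to 1.16) do not reach that of Mcm2. Nor do those of Mcm3, Mcm5 and Mcm7, whose lower ends were -1.67, -1.67 and -1.44.

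**Figure D3:**
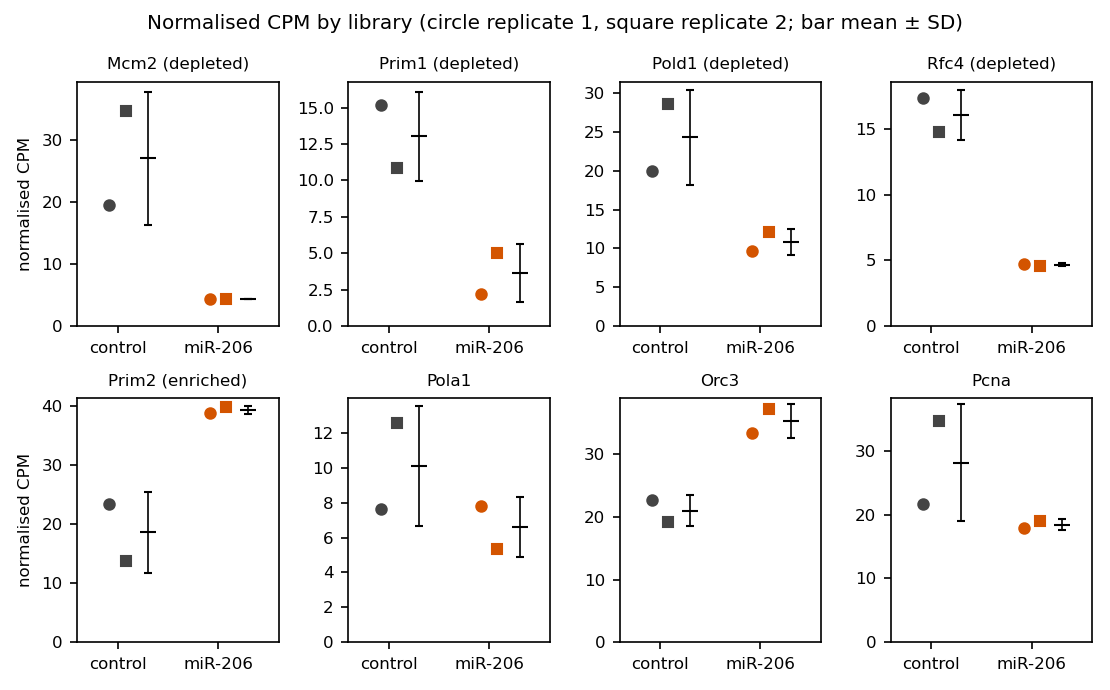
Normalised CPM in each library for the 5 called genes and for Pola1, Orc3 and Pcna, with circles for replicate 1, squares for replicate 2 and black bars for mean ± SD (n = 2). The Mcm2 controls at 19.5 and 34.7 CPM lie apart from each other and above the miR-206 values of 4.40 and 4.31, and the Pola1 groups overlap.

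Polymerase alpha and primase form one 4-subunit complex, and its 2 primase subunits were called in opposite directions. Prim1 (chromosome 10, 128015215 to 128030030), the catalytic primase subunit, had 15.2 and 10.9 normalised CPM in the controls and 2.20 and 5.02 with miR-206. The groups did not overlap, and the log2 fold was -1.83 ± 0.49, a 3.56-fold lower level (edgeR adjusted p = 0.011). Prim1 was depleted in 14 of 15 settings and lost its call without miR-206 replicate 1 (log2 fold -1.43, adjusted p = 0.191), while without miR-206 replicate 2 the log2 fold was -2.56.

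Prim2 (chromosome 1, 33453808 to 33669808), the large regulatory primase subunit, had 23.5 and 13.7 normalised CPM in the controls and 38.9 and 39.8 with miR-206. Its groups did not overlap on this scale, with a log2 fold of 1.08 ± 0.32, a 2.11-fold higher level (edgeR adjusted p = 0.0232). The call held in 7 of 15 settings. It was lost with the upper quartile (log2 fold 0.76, adjusted p = 0.122) and on the TPM scale, where the levels of 15.1 and 8.49 TPM in the controls and 14.3 and 15.3 with miR-206 overlapped (limma adjusted p = 0.381). The median log2 fold of all genes in that limma fit was -0.91. With median-centred TPM the Prim2 log2 fold was 1.155, just beyond the threshold (limma adjusted p = 0.0545). With total counts alone the log2 fold was -0.07. The call was also lost without control replicate 2 (adjusted p = 0.0799) and without miR-206 replicate 1 or 2 (0.121 and 0.101).

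Pola1 (chromosome X, 93304766 to 93632387), the published target, was not enriched in the miR-206 pulldown. It had 7.66 and 12.5 normalised CPM in the controls and 7.82 and 5.37 with miR-206, so the groups overlapped. The log2 fold was -0.62 ± 0.45 (edgeR adjusted p = 0.368), and under TMM scaling its 95% interval ran from -1.57 to 0.33. The sign was negative in all 15 settings, and the gene was depleted in 3 of them. These were total counts alone (log2 fold -1.73, edgeR adjusted p = 0.00851) and limma on TPM at both pseudocounts (adjusted p = 0.0434 and 0.0452). In those 3 settings 45.3%, 41.4% and 39.7% of all genes were depleted. With median-centred TPM the Pola1 log2 fold was -0.38 (limma adjusted p = 0.523). Pola2, the accessory subunit of polymerase alpha, had 20.7 and 21.8 CPM against 17.6 and 10.7, a log2 fold of -0.59 ± 0.35 that did not pass (adjusted p = 0.259).

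Among the subunits of polymerases delta and epsilon, which copy the lagging and the leading strand, 1 of 5 was called. Pold1 (chromosome 7, 44532744 to 44548815), the catalytic subunit of polymerase delta and the most abundant of the 5 per length (mean 23.6 TPM), had 20.0 and 28.6 normalised CPM in the controls and 9.69 and 12.1 with miR-206. The groups did not overlap, with a log2 fold of -1.16 ± 0.35, a 2.23-fold lower level (edgeR adjusted p = 0.023). On the TPM scale the gap was wider, 39.3 and 41.5 TPM against 6.37 and 6.96 (limma log2 fold -2.52, adjusted p = 0.00121). The median log2 fold of all genes in that fit was -0.91. With median-centred TPM the Pold1 log2 fold was -1.73 (limma adjusted p = 0.00469). The call was lost without control replicate 2 (log2 fold -0.83, adjusted p = 0.104), miR-206 replicate 1 (0.221) or miR-206 replicate 2 (0.0836). The accessory subunit Pold2 had a log2 fold of -0.61 ± 0.42 with overlapping groups, Pold3 0.23 ± 0.34, Pole, the catalytic subunit of polymerase epsilon, 0.20 ± 0.44, and Pole2 -0.22 ± 0.89, the last from only 15 to 33 counts a library.

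In the clamp and clamp loader group, all 6 fitted log2 folds lay below 0 and Rfc4 was called. Rfc4 (chromosome 16, 23113948 to 23127730), a subunit of the replication factor C complex that opens the clamp and sets it on DNA, had 17.4 and 14.7 normalised CPM in the controls and 4.73 and 4.58 with miR-206. Both pairs of replicates were close to each other and far from the other pair, with a log2 fold of -1.79 ± 0.40, a 3.45-fold lower level (edgeR adjusted p = 0.00335). It was depleted in all 15 settings, at log2 folds from -2.92 to -1.64. Rfc3, another small subunit of the loader, had 7.03 and 9.34 CPM against 2.97 and 2.90, a log2 fold of -1.48 ± 0.52 just beyond the threshold (adjusted p = 0.0534), and it was depleted in 7 of 15 settings.

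The other members of the group did not pass. Pcna (chromosome 2, 132249286 to 132253180), the sliding clamp and the most abundant of the 38 genes per length (mean 24.5 TPM), had 21.6 and 34.6 normalised CPM in the controls and 17.8 and 19.0 with miR-206. The groups did not overlap, yet the log2 fold of -0.61 ± 0.33 missed the threshold (edgeR adjusted p = 0.212). Pcna was depleted in 4 of 15 settings, among them total counts alone (edgeR adjusted p = 0.00125) and limma on TPM at both pseudocounts (adjusted p = 0.00859 and 0.00974). In those settings, in that order, 45.3%, 41.4% and 39.7% of all genes were depleted. With median-centred TPM Pcna did not pass (log2 fold -0.68, limma adjusted p = 0.15). Rfc1, the large subunit, had a log2 fold of -0.35 ± 0.37, Rfc2 -0.03 ± 0.32 and Rfc5 -0.31 ± 0.31, each with overlapping groups. RefSeq lists 2 Pcna pseudogenes, so some reads of Pcna may have been divided with them.

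None of the 6 origin recognition genes passed (edgeR adjusted p from 0.0853 to 0.582; 1 had an unadjusted p under 0.05, and DESeq2 called 0), and their median log2 fold was -0.29. Orc3 (chromosome 4, 34566781 to 34614963) had 22.8 and 19.3 normalised CPM in the controls and 33.5 and 37.2 with miR-206, a log2 fold of 0.75 ± 0.30 (adjusted p = 0.0853; 0.0386 without control replicate 1). Its sign depended on the scale, with 32.4 and 26.4 TPM in the controls and 15.4 and 20.5 with miR-206 (limma log2 fold -0.70) and a log2 fold of -0.37 with total counts alone. The median log2 fold of all genes was -0.91 and -1.22 in those fits. With median-centred TPM the Orc3 log2 fold was 0.08 (limma adjusted p = 0.857). Orc1, the subunit whose level varies most through the cell cycle in mammals, had 2.30 and 2.47 CPM against 5.06 and 2.82, with 32 to 47 counts a library. Orc2, Orc4, Orc5 and Orc6 had log2 folds from -0.60 to -0.28, and the groups of Orc4 and Orc5 did not overlap.

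The 3 genes that govern helicase loading did not pass either (adjusted p from 0.214 to 0.988; 0 had an unadjusted p under 0.05). With DESeq2 none of the 3 was called, and by edgeR without control replicate 1 Gmnn was. Gmnn (chromosome 13, 24751845 to 24761937) encodes geminin, which binds Cdt1 and blocks relicensing. It had 7.52 and 13.4 normalised CPM in the controls and 6.38 and 5.28 with miR-206, a log2 fold of -0.84 ± 0.46 (adjusted p = 0.214). Gmnn was depleted in 4 of 15 settings, among them total counts alone (edgeR adjusted p = 0.00487) and limma on TPM at both pseudocounts (adjusted p = 0.0104 and 0.0114). In those settings, in that order, 45.3%, 41.4% and 39.7% of all genes were depleted. With median-centred TPM Gmnn did not pass (log2 fold -0.85, limma adjusted p = 0.138). Cdt1, its partner and the helicase loader, had a log2 fold of -0.62 ± 0.69. Cdc6, the loading ATPase, had 4.87 and 0.682 CPM in the controls and 2.31 and 3.08 with miR-206, so the controls differed from each other more than the groups did.

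The helicase activators had 0 of 6 genes past the threshold (edgeR adjusted p from 0.07 to 0.81, with 2 at an unadjusted p under 0.05, and 0 called by DESeq2). Mcm10, which is needed to start the activated helicase, had the lowest log2 fold of the group, -1.47 ± 0.56, from 6.06 and 10.8 CPM in the controls and 1.98 and 4.05 with miR-206 (adjusted p = 0.07). It was depleted in 7 of 15 settings, among them the fit with the replicate number as a block. Gins3 had a log2 fold of -1.28 ± 0.55 and Gins4 of -0.70 ± 0.38, both with control above miR-206 in every library. Gins2 (chromosome 8, 120581266 to 120589075), a GINS subunit and the most abundant of the 6 per length (mean 21.1 TPM), had 22.3 and 43.9 CPM against 34.2 and 45.2. Its groups overlapped, and its log2 fold was 0.26 ± 0.34. The sign turned with total counts alone (-0.80), on the TPM scale and without control replicate 1. Gins1 had 15 to 49 counts a library and a log2 fold of -0.34 ± 0.80. Cdc45 had 1.18 and 7.4 CPM in the 2 controls, a 17 against 141 count difference, and 6.60 and 7.22 with miR-206, so its fold rests on which control is used.

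Both genes of Okazaki fragment maturation had all control CPM values above all miR-206 values, as did 32.3% of all tested genes. Neither passed the threshold. Lig1 (chromosome 7, 13277175 to 13311426), the ligase that seals the fragments, had 14.1 and 21.6 normalised CPM against 10.1 and 10.5, a log2 fold of -0.79 ± 0.36 (edgeR adjusted p = 0.137). Lig1 was depleted in 3 of 15 settings, among them the upper quartile and total counts alone (edgeR adjusted p = 0.0413 and 0.00149). In those settings, in that order, 12.9% and 45.3% of all genes were depleted. With median-centred TPM Lig1 did not pass (log2 fold -0.27, limma adjusted p = 0.678). Fen1, the flap endonuclease, had 11.6 and 11.2 CPM against 5.50 and 7.83, a log2 fold of -0.77 ± 0.42 (adjusted p = 0.219).

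**Figure D4:**
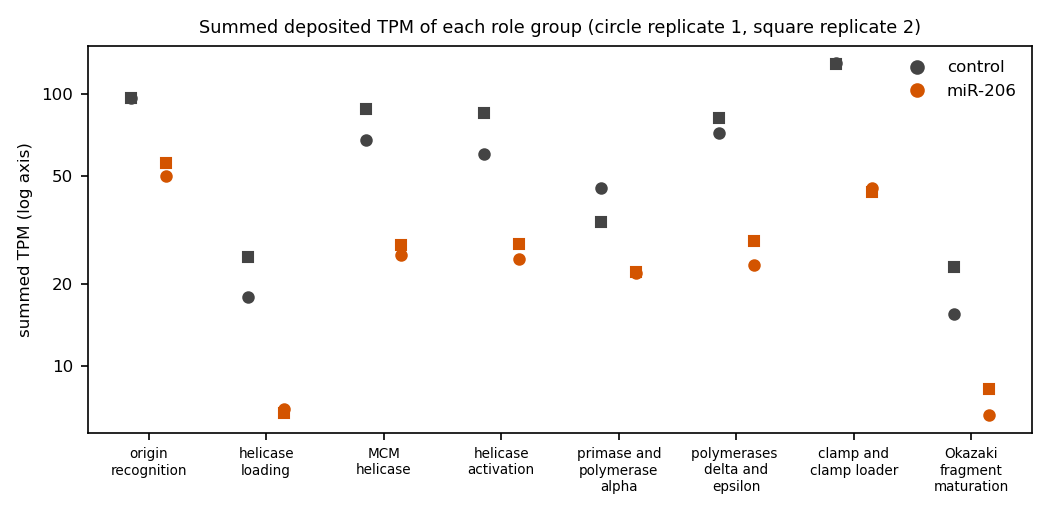
Summed deposited TPM of each role group in each library (log axis), circles for replicate 1 and squares for replicate 2. Every group's control sums lie above its miR-206 sums, for example at 129 and 128 against 44.9 and 43.6 TPM for the clamp and clamp loader and at 45.2 and 33.8 against 21.9 and 22.1 for primase and polymerase alpha. On this scale 66.7% of all genes had both control values above both miR-206 values.

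On the per-length TPM scale the whole list summed to 504 and 561 TPM in the control libraries and 204 and 221 with miR-206. The MCM genes summed to 67.3 and 87.7 against 25.6 and 27.9 TPM, and the helicase loading genes to 17.9 and 25.1 against 6.95 and 6.71. The origin recognition genes had the smallest relative gap beside primase and polymerase alpha, 96.7 and 96.1 against 49.8 and 55.8 TPM. For 32 of the 38 genes both control TPM values lay above both miR-206 values, where 66.7% of all genes on that scale did so. In the authors' deposited table the log2 fold of group mean TPM was below 0 for 36 of the 38 genes (median -1.39), and for 81.2% of all genes listed there (median -0.89). The 2 exceptions in the authors' deposited table were Orc1 at 1.26 and Prim2 at 0.33.

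Count folds and TPM folds differed for some of these genes. A TPM divides by transcript length, so the ratio of counts to TPM, on the log2 scale and centred on each library's median gene, follows the effective length of the transcripts to which a gene's reads were assigned. For 9 of the 38 genes the ratio differed by more than 0.4 between the group means, against 7.79% of 12551 genes with at least 10 counts in every library (23.7% of the 38). Orc1 moved most, from -1.42 and -1.11 in the controls to -2.81 and -2.80 with miR-206, toward shorter transcripts. Its counts were 33 and 47 against 46 and 32, while its TPM was 3.74 and 3.03 against 10.2 and 6.08.

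Gins1 moved the other way, from -2.52 and -2.85 to -1.74 and -1.68, toward longer transcripts with miR-206. Pold1 (difference 0.48), Orc3 (0.49), Gins2 (0.43) and Mcm7 (0.41) also shifted toward longer transcripts, and Lig1 (-0.62), Pole (-0.54) and Pold2 (-0.50) toward shorter ones. In each of these 9 genes the groups did not overlap, on 15 to 836 counts a library. The groups did not overlap either in genes with little shift, such as Mcm2 and Rfc1 (both -0.04). Non-overlap therefore does not set the 9 genes apart, and its share over all genes was not counted. Mcm2 and Pcna, at -0.04 and -0.05, stayed at the all-gene median of -0.04. This measure was not tested, and which transcripts were involved cannot be read from the table, which names 1 transcript a gene.

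**Figure D5:**
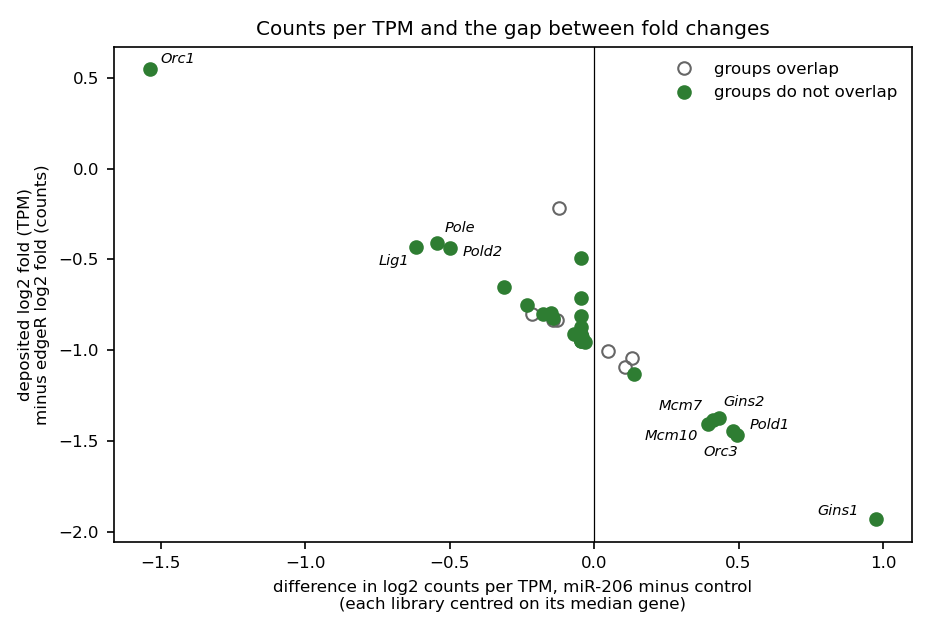
Each point is one of the 38 genes, with the group difference in log2 counts per TPM on the x axis and the gap between the deposited TPM fold and the edgeR count fold on the y axis. Orc1 at -1.54 and Gins1 at 0.98 lie at the ends, and filled points mark genes whose groups do not overlap on the x axis. Filled points include genes with little shift, such as Mcm2 at -0.04.

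Promoter sequence played no part in the choice of these genes. E2F factors, which switch on S phase genes, are known to bind sites such as TTTCCCGC, TTTGGCGC, TTTCGCGC and TTTGCCGC. These 4 motifs were searched on both strands in RefSeq windows from 250 bases before to 50 after each gene start (GRCm38.p6); they can overlap one another. Of the 38 genes 30 had a window, and 15 of those held at least 1 motif, against 4.26% of 11073 tested genes with a window. Per window, 39.5% of 38 windows of these genes held one against 3.51% of the 14162 windows of tested genes. Of the depleted genes Pold1 held a motif, whereas the windows of Mcm2, Prim1 and Rfc4 did not contain these letters. Prim2 had no window. Windows of Mcm6, with the most matches (3, of which a pair overlap), of Rfc3, with 2, and of Pold1, the depleted gene with a match, are shown 5′ to 3′ on the gene's strand with matches in capitals. They lie at chr1:128359656-128359955, chr5:151651159-151651458 and chr7:44548766-44549065, all on the minus strand.

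Mcm6: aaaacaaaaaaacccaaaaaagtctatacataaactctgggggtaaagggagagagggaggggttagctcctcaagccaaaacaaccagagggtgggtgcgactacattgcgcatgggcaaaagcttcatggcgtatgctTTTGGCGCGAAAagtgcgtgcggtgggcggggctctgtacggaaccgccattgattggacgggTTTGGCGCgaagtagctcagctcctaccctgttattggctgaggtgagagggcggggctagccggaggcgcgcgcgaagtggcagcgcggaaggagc
Rfc3: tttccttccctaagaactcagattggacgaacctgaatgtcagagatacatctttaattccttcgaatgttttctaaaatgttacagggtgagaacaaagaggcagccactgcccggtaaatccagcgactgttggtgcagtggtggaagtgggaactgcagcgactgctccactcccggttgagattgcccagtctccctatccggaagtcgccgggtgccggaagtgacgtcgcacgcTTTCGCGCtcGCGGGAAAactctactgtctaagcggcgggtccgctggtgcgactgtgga
Pold1: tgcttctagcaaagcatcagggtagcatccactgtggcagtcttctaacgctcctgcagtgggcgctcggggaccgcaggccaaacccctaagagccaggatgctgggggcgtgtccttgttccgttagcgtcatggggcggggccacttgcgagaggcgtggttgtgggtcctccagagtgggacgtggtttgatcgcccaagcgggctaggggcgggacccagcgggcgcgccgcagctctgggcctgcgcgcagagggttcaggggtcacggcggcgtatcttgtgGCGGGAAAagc

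A match is a description of the letters and says nothing on binding in these cells.

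Other genes of the S phase programme were read from lists chosen with earlier results known. Of 33 replication accessory factors 2 were enriched and 2 depleted (6.06% each, against 15.3% and 6.19% of all tested genes), and the median log2 fold was -0.11, as for all genes. Mcmbp, which binds MCM subunits, had 48.3 and 51.1 normalised CPM in the controls and 132 and 141 with miR-206, a log2 fold of 1.46 ± 0.30 (edgeR adjusted p = 0.00148). Its call was lost with total counts alone (log2 fold 0.35, adjusted p = 0.257) and on the TPM scale (0.752, and 0.0598 after median-centring). Mcm8, an MCM relative that acts in recombination, had a log2 fold of -2.27 ± 0.65 (edgeR adjusted p = 0.0182) from 91 and 120 counts against 10 and 17, and was not called without miR-206 replicate 1 or 2 (0.214 and 0.113) or with median-centred TPM (0.295). Pold4, the smallest polymerase delta subunit (0.87 ± 0.30, adjusted p = 0.0484), and Chtf8, part of an alternative clamp loader (-1.15 ± 0.40, adjusted p = 0.0494), lay at the threshold, and the sign of Pold4 turned with total counts and TPM. Pold4 lost its call whichever single library was left out. Chtf8 lost its call after dropping control replicate 2 or either miR-206 replicate, with RLE factors (adjusted p = 0.0532) and with DESeq2 (0.0817).

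Genes that supply nucleotides for DNA synthesis had 5 of 11 enriched and 1 depleted, where 15.3% and 6.19% of all tested genes were. Rrm2, the small subunit of ribonucleotide reductase, had 39.4 and 73.6 normalised CPM in the controls and 189 and 270 with miR-206, a log2 fold of 2.02 ± 0.36 (edgeR adjusted p = 0.000484). Its p53-inducible relative Rrm2b (1.52 ± 0.33), Rrm1, the large reductase subunit (1.41 ± 0.33), and Dctd, deoxycytidylate deaminase (4.31 ± 0.80), were also enriched, the last 2 named after their values were seen. Dctd had 5.01 and 24.4 CPM in the controls and 378 and 209 with miR-206, and its log2 fold was 3.61 without control replicate 1, 5.91 without control replicate 2 and 3.80 without miR-206 replicate 1. Rrm1 was not called without miR-206 replicate 2 (log2 fold 0.89, adjusted p = 0.17), with total counts (0.429) or on the TPM scale (0.402). Dut, which clears dUTP, was depleted, with 61.0 and 67.5 CPM against 22.3 and 21.0 and a log2 fold of -1.57 ± 0.29 (adjusted p = 0.000629). Rrm2b lost its call with total counts and with TPM, where its log2 fold was -0.0038.

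Of 21 genes of S phase control 4 were enriched, a share near the 15.3% of all tested genes, and 3 (14.3%) were depleted, against 6.19%. E2f8, an E2F family repressor of S phase genes, had 9.12 and 15.7 normalised CPM in the controls and 875 and 552 with miR-206, a log2 fold of 5.84 ± 0.46 (edgeR adjusted p = 9.52e-08). It was past the threshold in every setting run, with log2 folds from 4.73 to 6.33. Tfdp1, the dimer partner of E2F factors, had a log2 fold of 1.61 ± 0.31 and Ccna2, cyclin A2, of 1.71 ± 0.30, both enriched with TMM and not past the threshold with total counts alone (adjusted p = 0.128 and 0.0631), nor was Tfdp1 on the TPM scale (0.0808). Cdkn1b, the CDK inhibitor p27, was depleted, with 268 and 249 CPM against 83.7 and 111 and a log2 fold of -1.41 ± 0.32 (edgeR adjusted p = 0.00378).

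Of 20 genes of mitosis and G2, 6 (30.0%) were depleted and 0 enriched, against 6.19% and 15.3% of all tested genes, with a median log2 fold of -0.60, near that of the 38 replication genes. Ccnb1, cyclin B1, had 1602 and 3557 normalised CPM in the controls and 20.6 and 31.0 with miR-206 (log2 fold -6.64 ± 0.55, edgeR adjusted p = 1.59e-07; -5.91 without control replicate 2). Nusap1, a spindle protein (-1.61 ± 0.34), Ccnb2, cyclin B2 (-1.38 ± 0.32), and Kif23, a kinesin of cytokinesis (-1.41 ± 0.37), were also depleted. The call of Kif23 was lost without control replicate 2, miR-206 replicate 1 or miR-206 replicate 2 (adjusted p = 0.0744, 0.0552 and 0.125) and with median-centred TPM (0.0582), and that of Ccnb2 without miR-206 replicate 2 (0.0812). Whether the replication list differs from this list or from the nucleotide supply list was not tested.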

How the data were processed

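The estimated counts and TPM were made by the authors with kallisto against mm10, per the submitters' processing notes; the sources used here state neither versions nor the annotation nor how transcripts became genes. In the authors' deposited table the log2 fold is that of group mean TPM, with means under 1 TPM listed as 0 by the authors, and has no test. Folds from such means are still finite, as for Mcm2 (0 listed against 11.4 TPM, log2 fold -3.51), so they are bounded by that floor. No read-sharing detail is given for genes with copies. ERCC spike-ins were part of the protocol but no basis for scaling, per the labels' protocols, and the table names 0 ERCC rows.

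Columns were tied to samples by the barcodes in the titles, with 0 left over. Counts were rounded and fitted with edgeR 4.0.16 (R 4.3.3; glmQLFit, robust, TMM, filterByExpr, group only) over all 4 libraries. P-values were adjusted over 15240 genes. The SE is the size of the log2 fold over the square root of its F statistic, and 95% intervals come from it; neither covers the scaling. Alternatives were DESeq2 1.42.0, limma 3.58.1 on log2 TPM (TPM of at least 1 in 2 libraries), other scalings and filters, a replicate block, and each library left out. The scripts were tested on simulated data. A floor of 3 counts equals 0.157 to 0.330 normalised CPM. Same-numbered replicates did not deviate together (r = -0.042 over 15240 genes), so the numbers were not taken as pairs. Values in every library are given for called genes, Pola1 and the most abundant gene of each role. From the 4 further lists up to 4 genes were named by smallest p, given a mean of 1 CPM or more, and others were chosen after their values were seen. The members and lists were chosen with earlier results of these data known. One gene that the naming rule picked is not reported here.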

Additional observations from a re-analysis of the deposited data

How the results depend on the processing

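The count of depleted replication genes was 4 in the fit on all libraries, 10 with upper-quartile scaling, 26 with total counts alone, and 24 with limma on log2 TPM at either pseudocount; leaving out one library gave 2 to 12. The count of enriched genes was 1, against 0 with the upper quartile or total counts, and 0 to 2 with one library left out. The median log2 fold of the 38 genes, -0.59, was -0.87 with the upper quartile, -1.66 with total counts, -1.19 and -1.39 with TPM at pseudocounts 0.5 and 0.1, -0.41 with median-centred TPM, and -0.62 to -0.36 with one library left out. With the replicate block 6 genes were depleted, 1 was enriched and the median was -0.55. Over all genes the depleted calls were 944 with TMM, 1962 with the upper quartile, 6909 with total counts, 5657 and 5420 with TPM, and 358 to 1535 with one library left out; the enriched calls were 2327 with TMM, 1070 with total counts and 1093 and 1063 with TPM. Of the named genes' alternative values, 311 kept direction and side of the threshold, 47 lost the call, 20 gained one and 14 changed sign. The sign changes were Prim2 (-0.073), Gins2 (-0.80), Orc3 (-0.37) and Pold4 (-0.27) with total counts; Gins2 (-1.05, -1.08), Orc3 (-0.70, -0.72), Pold4 (-0.076, -0.076) and Rrm2b (-0.0038, -0.0028) with TPM; and Gins2 with median-centred TPM (-0.27) and without control replicate 1 (-0.12, against 0.87 without control replicate 2). The cause of these differences was not tested. The search for seed matches was not run, since no transcript sequences were used here. The genes under 50 counts in every library, namely Orc1, Gins1 and Pole2, had SEs of 0.70 to 0.89.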
